A study of Mus musculus with 3 samples.

Results

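The complement genes described here are 9 of the 32285 genes in the tables of the 3 libraries: the C1q chains C1qa, C1qb and C1qc, the components C3, C4b, Cfb and C6, and the receptors C3ar1 and C5ar1. They were picked by gene symbol, and all 9 were found. Single cells came from dorsal skin of C57Bl/6 male mice, 8 weeks old, enriched for CD45+ (immune) cells and profiled on a 10x Genomics 3′-end droplet platform, with 1 library and 1 mouse per group. WT_Ctrl was a wild-type mouse without irradiation. WT_UV was a wild-type mouse after 3 exposures to UVB. RP_UV was a Rosa26-rtTA; Tre-Ptgs2 mouse after the same 3 exposures. In that line, per the study's methods, doxycycline switches on rat Ptgs2, which encodes the prostaglandin-synthesising enzyme Cox-2, throughout the body. Whether the wild-type mice of these libraries were given doxycycline was not given in the sources used here, so genotype and drug cannot be told apart in comparisons with RP_UV.

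Complement is a cascade of plasma and tissue proteins that tags cells and particles, calls in leukocytes and can perforate membranes. In the classical pathway C1q, built of A, B and C chains, binds antibodies or dying cells, and cleavage of C4 and C2 follows; factor B (Cfb) serves the alternative pathway, both lead to cleavage of C3, and C6 belongs to the membrane attack complex. The fragments C3a and C5a act on the receptors C3ar1 and C5ar1, which are known from myeloid cells. Unlike most complement proteins, which the liver supplies, C1q is made largely by macrophages and related cells, and tissue fibroblasts are a known local source of C3 and C4.

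The 3 C1q genes lie side by side on the minus strand of chromosome 4 of GRCm38.p6, the patch release of the mm10 assembly: C1qb at chr4:136880126-136886200, C1qc at chr4:136889801-136892936 and C1qa at chr4:136895916-136898844, within a span of 18719 bases. C4b (chr17:34728139-34743902) and Cfb (chr17:34856374-34862514) both lie within 134376 bases of chromosome 17, and C3 (chr17:57203967-57228136) is on the same chromosome. C6 is at chr15:4727067-4804045, C3ar1 at chr6:122847140-122856157 and C5ar1 at chr7:16246743-16259540.

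RefSeq promoter windows of GRCm38.p6 were at hand for 6 members (C1qb, C1qc, C3, C6, C3ar1 and C5ar1), and the 250 bases before each start were searched on both strands for a pair of motifs bound by factors known from myeloid cells. The letters AGGAAGT, or ACTTCCT when read on the other strand, are a core of the ETS family to which PU.1 belongs. They were found in 3 of the 6, C1qb, C1qc and C5ar1, against 7.80% (2109) of all 27025 windows. The looser C/EBP-type pattern TTNNGNAA was found in 4 of the 6 (C1qc, C3, C5ar1 and C6), against 36.9% of all windows. The windows with the first motif are shown because they include both C1q chains with a window and the receptor of neutrophils and macrophages; that of C3 is shown for its 3 matches to the second pattern. Each line gives the 200 bases before the start, 5′ to 3′ on the gene's strand, with the matches in capitals. The start is the one used by the promoter window. For C1qc, C5ar1 and C6 it lies inside the gene span printed above. All bases shown for C5ar1 and the last ones shown for C1qc are therefore within those spans. A match is a description of the letters and was not tied to binding.
C1qb, chr4:136886201-136886400, minus strand: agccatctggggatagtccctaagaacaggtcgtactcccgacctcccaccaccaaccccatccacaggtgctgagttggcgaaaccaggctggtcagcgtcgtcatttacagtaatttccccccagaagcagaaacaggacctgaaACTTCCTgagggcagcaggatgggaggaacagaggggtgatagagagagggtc
C1qc, chr4:136892915-136893114, minus strand: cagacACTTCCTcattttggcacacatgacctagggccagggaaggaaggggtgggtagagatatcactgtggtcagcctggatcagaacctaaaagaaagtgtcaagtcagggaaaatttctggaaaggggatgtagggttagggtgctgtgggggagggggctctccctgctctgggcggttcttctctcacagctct
C5ar1, chr7:16259339-16259538, minus strand: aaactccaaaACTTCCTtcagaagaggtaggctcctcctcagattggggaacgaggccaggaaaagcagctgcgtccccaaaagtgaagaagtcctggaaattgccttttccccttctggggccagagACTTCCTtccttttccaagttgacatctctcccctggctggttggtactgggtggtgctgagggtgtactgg
C3, chr17:57228137-57228336, minus strand, second pattern: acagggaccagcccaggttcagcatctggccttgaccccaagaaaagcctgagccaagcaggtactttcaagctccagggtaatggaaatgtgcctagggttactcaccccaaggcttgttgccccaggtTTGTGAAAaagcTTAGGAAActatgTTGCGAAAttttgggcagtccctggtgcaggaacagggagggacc
The matches to the first motif began 53 bases before the start used by the window of C1qb. They began 195 bases before that of C1qc, and 190 and 72 before that of C5ar1. In C3 the second pattern began 70, 58 and 45 bases before the start.

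After filtering, 5309, 5225 and 6070 cells of WT_Ctrl, WT_UV and RP_UV were kept, with a median of 4246, 10557 and 3774 UMIs (unique molecular identifiers, counted once per captured transcript) per cell; 7 to 9 cell barcodes were shared by each pair of libraries. Cells were assigned to classes rebuilt from marker genes, so each class name is to be read as "like" that cell type; 48.1%, 58.5% and 50.1% of kept cells fell in immune classes, and 18.3%, 30.2% and 12.0% stayed unnamed. Levels are a gene's UMIs per 1e+06 UMIs of all genes in the class (CPM). Ptgs2, as counted on the mouse reference, was at 14.4, 117 and 486 CPM over all kept cells of the 3 libraries. Intervals are exact 95% intervals that cover counting error only, and with 1 library per group no difference between groups could be tested. The labels name 1 flow cell for WT_Ctrl and RP_UV and a different one for WT_UV, so run and group cannot be told apart against WT_UV, and the 3 comparisons share their libraries.

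Macrophages held most of the UMIs of 8 members in each library: over the 3 libraries, 81.1% to 88.6% of C1q (the 3 chains summed), 84.9% to 94.5% of C4b, 82.8% to 89.9% of Cfb, 92.1% to 97.0% of C6, 63.5% to 88.7% of C3ar1 and 67.4% to 94.1% of C5ar1. C3 was the exception, with 22.7%, 37.9% and 12.9% of its UMIs in macrophages of WT_Ctrl, WT_UV and RP_UV. These shares move with the number of cells in each class (1702, 1659 and 2131 macrophages) and with the cells that stayed unnamed. Of kept cells 18.3%, 30.2% and 12.0% were unnamed, and macrophage markers scored highest in some of these. For C1q, unnamed cells held 10281, 36378 and 16930 of 102504, 294576 and 219842 UMIs. CD45 enrichment sets how many non-immune cells are present. By level, and among classes with 50 or more cells, macrophages were highest for the C1q chains, C4b, Cfb, C6 and C3ar1 in each library, with intervals apart from those of the next class. C5ar1 was highest in neutrophils of WT_UV and RP_UV, and C3 in fibroblasts of WT_Ctrl and RP_UV.

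**Figure D1:**
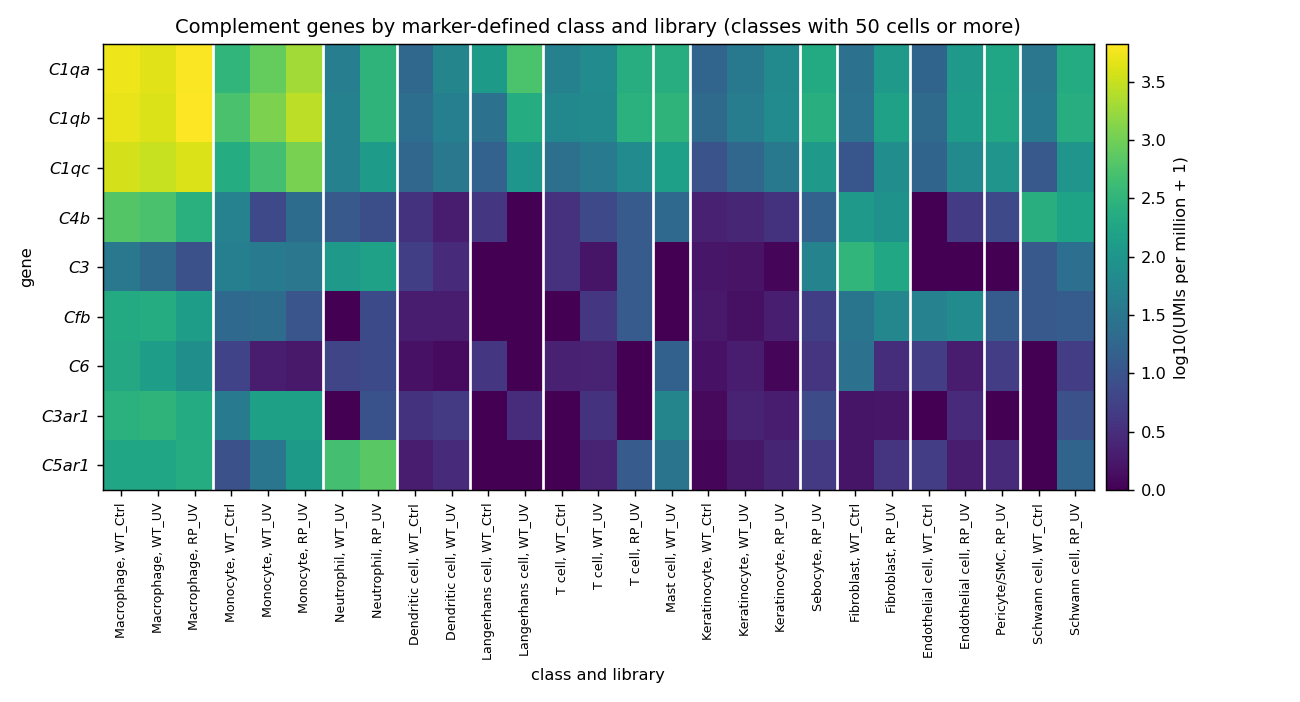
Heat map of the level of each of the 9 genes, as log10 of CPM plus 1 (colour scale), with 1 column per marker-defined class and library for classes of 50 or more cells. C1q is brightest in macrophages and then monocytes of all 3 libraries, C5ar1 is brightest in neutrophils, and C3 stands out in fibroblasts of WT_Ctrl and RP_UV and in neutrophils.

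Macrophage C1q transcripts were lowest in WT_UV and highest in RP_UV. C1qa, which encodes the A chain, was at 5303 CPM in WT_Ctrl, 4411 in WT_UV and 6366 in RP_UV. C1qb (B chain) was at 5019, 4233 and 6633 CPM, and C1qc (C chain) at 3738, 3188 and 4215 CPM in the same order. All 3 chains kept this order of libraries, and none of their counting intervals overlapped between libraries. Summed, C1q was at 14059, 11833 and 17214 CPM: 1.19-fold lower in WT_UV than in WT_Ctrl (1.18 to 1.2), 1.45-fold higher in RP_UV than in WT_UV (1.45 to 1.46) and 1.22-fold higher in RP_UV than in WT_Ctrl (1.21 to 1.23). C1qb showed the largest RP_UV to WT_UV ratio of the 3 chains, 1.57 (1.55 to 1.58), against 1.44 for C1qa and 1.32 for C1qc. Pf4, a macrophage marker used for class naming, was at 4685, 5970 and 6551 CPM in these cells, so that C1qa per Pf4 UMI was 1.13, 0.739 and 0.972. The 12 macrophage markers together were at 34401, 35809 and 25902 CPM, lowest in RP_UV. This sum leans on 1 marker, Ccl8, which was lowest in RP_UV in each of the 3 largest macrophage clusters described below. Ccl8 was at 34380, 30070 and 20340 CPM in cluster 2, and at 12607, 5197 and 3195 in cluster 0. In cluster 1 it was at 8799, 14013 and 5829 CPM. The part of these marker levels in the C1q ratios was not tested.

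**Figure D2:**
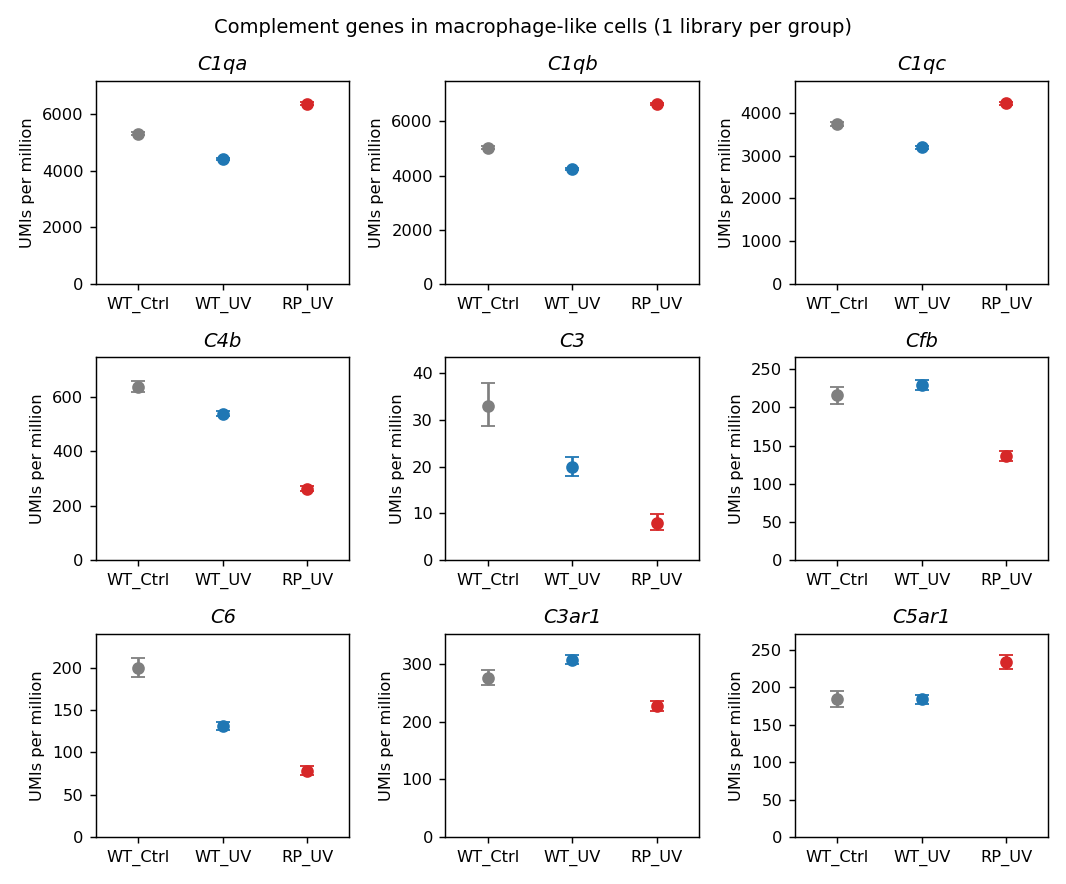
Levels of the 9 complement genes in macrophages of WT_Ctrl, WT_UV and RP_UV, 1 library each, in CPM on a linear axis per gene with exact 95% counting intervals. The 3 C1q chains and C5ar1 are highest in RP_UV, while C3, C4b, Cfb, C6 and C3ar1 are lowest there.

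In monocytes, which carried fewer C1q transcripts than macrophages in each library, the level was higher in WT_UV than in WT_Ctrl and highest in RP_UV. C1q summed was at 1087 CPM in WT_Ctrl (115 cells), 2465 in WT_UV (491 cells) and 5824 in RP_UV (171 cells), and the intervals of the 3 libraries did not overlap. The ratios were 2.27 for WT_UV over WT_Ctrl, 2.36 for RP_UV over WT_UV and 5.36 for RP_UV over WT_Ctrl; over the 9 alternative settings the first ran from 1.18 to 4.49, the second from 1.90 to 2.71 and the third from 2.24 to 10.9. Macrophage markers differed in these cells too. The summed level of the 12 macrophage markers was 2126, 2722 and 4527 CPM with none at 0, their median was 7.96%, 8.09% and 17.7% of the macrophage level, and C1qa stood at 6.08%, 18.8% and 30.5% of its own. The 8 monocyte markers together were at 3879, 2781 and 2689 CPM. Different clusters made up the class: 57 of the WT_Ctrl cells were in a cluster led by Plac8, Chil3 and Ly6c2, 148 of the WT_UV and 80 of the RP_UV cells in one led by Thbs1, Vcan and Chil3. Within the cluster led by Fn1, Lyz1 and Mmp12, which all 3 libraries shared, C1q was at 778 (38 cells), 1983 (99 cells) and 6397 CPM (62 cells). What part the marker shift and the cluster mix had in the class ratios was not tested.

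Langerhans cells, the macrophage-related cells of the epidermis, carried C1qa out of proportion to the other chains. C1qa was at 119 CPM in WT_Ctrl (70 cells), 548 in WT_UV (69 cells) and 1560 in RP_UV (23 cells), and the 3 intervals did not overlap. RP_UV over WT_Ctrl was 13.1, with 5.93 to 24.0 over the alternatives, and WT_UV over WT_Ctrl was 4.61, with 1.88 to 7.9. Keratinocyte markers (619, 737 and 2285.5 CPM summed) and neutrophil markers (729, 690.2 and 1787 CPM) were also highest in the RP_UV Langerhans cells. The libraries lay in different subclusters, with 41, 11 and 2 cells in one and 5, 37 and 11 in another, and the part of either in the C1qa ratios was not tested. C1qa made up 74.1%, 62.4% and 53.9% of C1q UMIs there, against 37.7%, 37.3% and 37.0% in macrophages and 29.6%, 33.6% and 33.3% in monocytes; the WT_Ctrl value rests on 54 UMIs. After each cell was thinned to 2000 UMIs, 11.6%, 56.5% and 85.7% of Langerhans cells had a C1qa UMI. Before thinning the shares were 32.9%, 81.2% and 87.0% at median depths of 4845, 13276 and 3768 UMIs. T cells, which should lack the gene, had thinned shares of 7.80%, 10.7% and 26.7%, and 26 of 302, 110 of 462 and 15 of 50 cells had a UMI before thinning, at median depths of 2322.5, 5245 and 1638 UMIs. The interval of the thinned share in WT_Ctrl Langerhans cells (5.14% to 21.6%) overlapped that of WT_Ctrl T cells (4.53% to 12.4%). In WT_UV (44.0% to 68.4% against 8.01% to 14.0%) and RP_UV (63.7% to 97.0% against 7.79% to 55.1%) the intervals were apart. For depth, 1, 0 and 2 Langerhans cells and 97, 14 and 35 T cells were left out of the thinning.

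Most macrophage markers were low in the Langerhans cells. The 12 markers summed to 1024, 1063 and 1299.8 CPM, of which Csf1r, a receptor that Langerhans cells are known to need, made up 571, 675 and 704 CPM. Their median was 0.388%, 0.397% and 0.579% of the macrophage level, with 4, 2 and 6 of the 12 at 0, while C1qa stood at 2.25%, 12.4% and 24.5% of its macrophage level. C1qa per Pf4 UMI was 5.0, 23.3 and 20.6 there, where macrophages had 1.13, 0.739 and 0.972. In T cells the marker median was 0.857%, 1.28% and 2.84% of the macrophage level and C1qa was at 0.875%, 1.58% and 3.81%, so both were low and of like size. C1qb was at 0.534%, 5.45% and 12.7% of its macrophage level in Langerhans cells and C1qc at 0.398%, 3.14% and 11.6%. Of the members outside C1q, C3, Cfb and C5ar1 had no UMI there in any library.

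Low C1q levels were present in each class and were highest in RP_UV in T cells (132, 172 and 590 CPM; the 50 T cells of RP_UV also held erythroid markers at 47208 CPM) and keratinocytes (45.0, 92.0 and 166 CPM). In fibroblasts C1q was 5.39-fold higher in RP_UV than in WT_Ctrl (4.33 to 6.76), while C1qa went from 0.480% to 1.78% of its macrophage level and the macrophage markers from a median of 0.503% to 1.91%. The source of these UMIs was not tested.

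**Figure D3:**
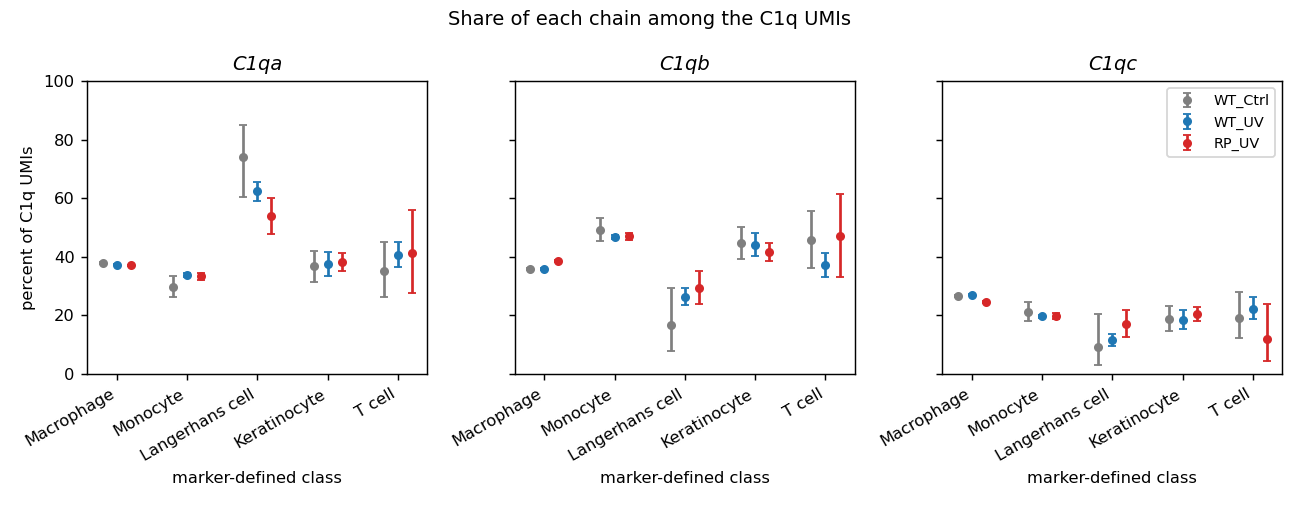
Share of C1q UMIs (%) that were C1qa, C1qb and C1qc in marker-defined classes of each library, with exact binomial 95% intervals. C1qa takes 53.9% to 74.1% in Langerhans cells and 37.0% to 37.7% in macrophages, while C1qb is the most abundant chain in monocytes.

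C4b, the murine C4 of the classical and lectin pathways, was lowest in RP_UV macrophages. The control library gave 636 CPM (617 to 656), WT_UV 538 CPM (528 to 549) and RP_UV 263 CPM (254 to 273). RP_UV was 2.05-fold lower than WT_UV (1.96 to 2.13) and 2.42-fold lower than WT_Ctrl (2.30 to 2.53), whereas WT_UV was 1.18-fold lower than WT_Ctrl (1.14 to 1.22), a step whose direction was lost with the same gene limit in each library or with cells thinned to 1 depth. Schwann cells carried C4b at 246 CPM in WT_Ctrl (86 cells) and 164 in RP_UV (255 cells), and fibroblasts at 116 and 87.7 CPM. The near-identical C4a had 8 UMIs in macrophages of all libraries together, so reads the counting could not place between the copies leave the C4b level uncertain.

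C3, on which all activation routes meet, was highest in fibroblasts, at 326 CPM in WT_Ctrl (353 cells) and 190.4 in RP_UV (400 cells), where they held 54.6% and 38.8% of its UMIs. The RP_UV level was 1.71-fold lower (1.47 to 1.99). WT_UV had 9 fibroblasts with no C3 UMI, so no C3 level was detectable there at this depth; these cells also held melanocyte markers at 4105 CPM. Within fibroblasts 1 cluster, led by Gpx3, Hp, Car3 and Clec3b, held 66.2% of C3 UMIs in WT_Ctrl and 90.3% in RP_UV. C3 in it was at 1467 CPM in WT_Ctrl (1315 to 1632; 37 cells) and 491 in RP_UV (431 to 557; 79 cells), so the level within the cluster was lower in RP_UV, with intervals apart. Clusters led by other genes were lower or at 0: the Col1a2 and Col1a1 cluster of WT_Ctrl (108 cells) was at 233 CPM, and the largest cluster of each library (134 cells in WT_Ctrl, 189 in RP_UV) had no C3 UMI.

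**Figure D4:**
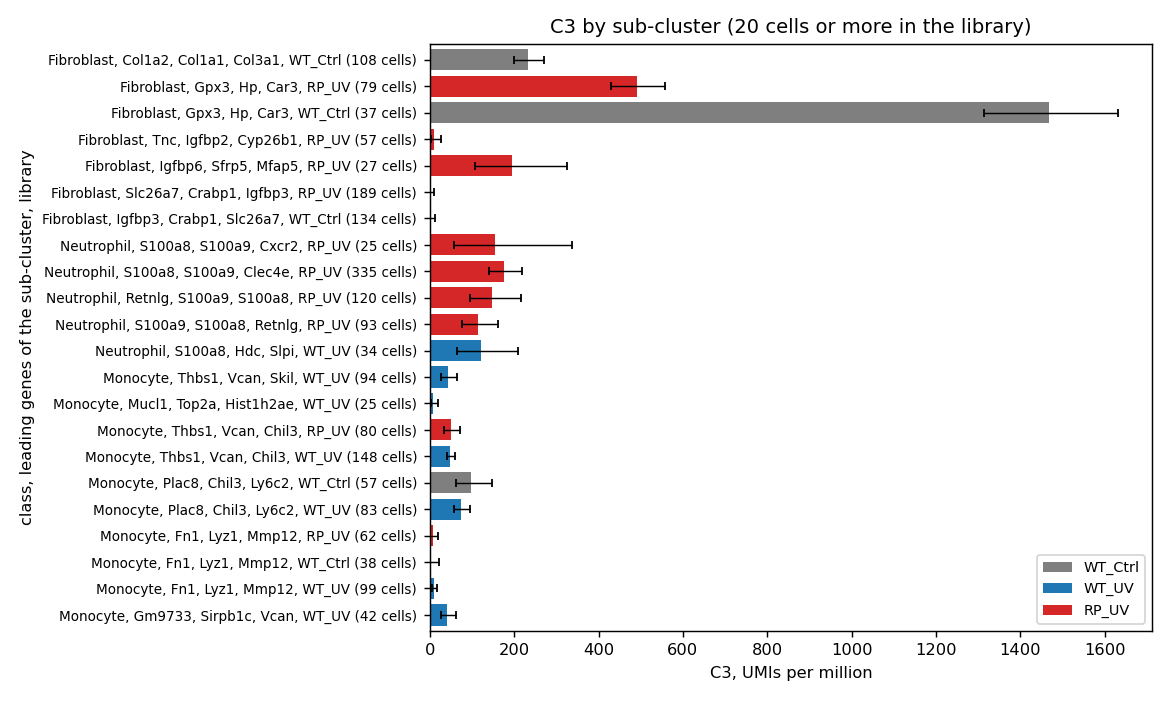
C3 level in CPM, with exact 95% counting intervals, in the fibroblast, neutrophil and monocyte clusters that hold 20 or more cells in a library. The cluster led by Gpx3, Hp, Car3 and Clec3b stands above the other fibroblast clusters, at 1467 CPM in WT_Ctrl and 491 in RP_UV.

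Among immune cells C3 was low in macrophages, at 33.0 CPM in WT_Ctrl, 19.95 in WT_UV and 7.99 in RP_UV, which is 4.13-fold lower in RP_UV than in WT_Ctrl (3.21 to 5.34) and 2.5-fold lower than in WT_UV (1.98 to 3.18). Monocytes (43.3, 36.2 and 31.4 CPM) stood above macrophages in WT_UV and RP_UV, while the intervals overlapped in WT_Ctrl. Neutrophils were higher again, at 111 CPM in WT_UV (59 cells) and 155 in RP_UV (586 cells); the 12 neutrophils of WT_Ctrl gave 177 CPM. The interval of RP_UV neutrophils (131 to 182) overlapped that of RP_UV fibroblasts (168 to 215).

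Cfb and C6 were both lowest in RP_UV macrophages, and differed from each other in the step from WT_Ctrl to WT_UV. Cfb, the alternative pathway's protease, was at 216 CPM in the control, 229 after UVB and 136 in RP_UV, 1.68-fold lower in RP_UV than in WT_UV (1.59 to 1.78); its WT_UV to WT_Ctrl ratio of 1.06 turned below 1 under 3 alternative settings. C6, of the membrane attack complex, was at 199.8, 131 and 77.9 CPM, 1.52-fold lower in WT_UV than in WT_Ctrl (1.43 to 1.63) and 1.68-fold lower again in RP_UV (1.56 to 1.82). Alternatives took both C6 steps under 1.5-fold: WT_UV reached 0.804 of WT_Ctrl with thinned cells, and RP_UV reached 0.7995 of WT_UV with macrophages and monocytes as 1 class. Cfb in RP_UV reached 0.7599 of WT_UV under the same joint class and 0.7797 of WT_Ctrl as a mean over cells. In fibroblasts Cfb differed in the other direction, with 29.9 CPM in WT_Ctrl and 57.8 in RP_UV, 1.93-fold higher (1.33 to 2.83). Endothelial cells had Cfb at 47.9 CPM in WT_Ctrl (92 cells) and 69.5 in RP_UV (326 cells). C6 in fibroblasts was at 26.7 CPM in WT_Ctrl and at 2.14 in RP_UV, the latter from 3 UMIs. The fibroblast class was made of different subclusters in these libraries, with 134 and 8 cells in one and 13 and 189 in another, and its own 10 markers summed to 120974 CPM in WT_Ctrl and 36274 in RP_UV; their part in the fibroblast ratios of Cfb, C6, C3 and the other genes named in this class was not tested.

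The receptors divided between cell types. C5ar1, the C5a receptor, was highest in neutrophils, at 476 CPM in WT_UV and 695 in RP_UV, a ratio of 1.46 (1.17 to 1.84); under the alternatives it ran from 1.45 to 4.63. In macrophages it was at 185, 184 and 234 CPM: the first pair of intervals overlapped, and RP_UV was 1.27-fold higher than WT_UV (1.21 to 1.34). In monocytes C5ar1 was at 8.02, 30.4 and 122 CPM, 4.0-fold higher in RP_UV than in WT_UV (3.21 to 4.99), with 2.46 to 5.15 over the alternatives. The WT_Ctrl level rests on 5 UMIs, so that RP_UV over WT_Ctrl, 15.2, ran from 9.68 to 71.3, and the macrophage markers of these monocytes were highest in RP_UV as well. C3ar1, the C3a receptor, was at 276, 307 and 226 CPM in macrophages, 1.36-fold lower in RP_UV than in WT_UV (1.29 to 1.42). The receptors thus differed in opposite directions in the macrophage class as a whole, though not in each of its clusters (below). In monocytes C3ar1 was at 38.5 CPM in WT_Ctrl, 146 in WT_UV and 148 in RP_UV, and the intervals of the irradiated libraries overlapped; RP_UV over WT_UV ran from 0.716 to 1.31 over the alternatives. None of 54 neutrophils of WT_UV thinned to 2000 UMIs had a C3ar1 UMI, which allows up to 5.56% of cells with a UMI and sets no limit on cells that express the gene. The 586 neutrophils of RP_UV held 8 C3ar1 UMIs (8.33 CPM), at 3.68% of the macrophage level. The macrophage markers had a median of 4.95% of theirs in the same cells, and the source of these UMIs was not tested.

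The 3 largest macrophage clusters, each present in all libraries, differed in complement genes beyond their class mean. Cluster 0 was higher in Ccr2 and Il1b, cluster 1 was led by Lyve1 and Retnla, and cluster 2 was high in Ccl8; they held 24.5%, 36.0% and 34.4% of macrophages in WT_Ctrl, 27.1%, 29.6% and 37.4% in WT_UV and 34.1%, 34.7% and 26.8% in RP_UV. C4b was at 250, 905 and 677 CPM in clusters 0, 1 and 2 of WT_Ctrl, at 133, 817 and 628 in WT_UV and at 56.3, 497 and 276 in RP_UV. C6 kept the same order, from 38.9, 379 and 171 CPM in WT_Ctrl to 7.28, 184 and 55.9 in RP_UV. Within each cluster both genes were lower in RP_UV than in either wild-type library. C4b in RP_UV was 0.225, 0.549 and 0.407 of WT_Ctrl in clusters 0, 1 and 2, and C6 was 0.187, 0.486 and 0.326. Each cluster split further into subclusters, most of them drawn largely from 1 library. In cluster 1 the first held 529, 69 and 18 cells of WT_Ctrl, WT_UV and RP_UV. The second held 67, 404 and 14, the third 10, 6 and 426, and the fourth 7, 12 and 281. In cluster 0 the subcluster led by Mucl1 and Igf1 was more mixed, with 390, 162 and 25 cells. The cluster 0 subcluster led by Cxcr4, Osm and Thbs1 held 3, 265 and 10 cells. Its macrophage and monocyte scores were close, so it stayed unnamed and is left out of these shares and levels. Another unnamed one, led by S100a9 and S100a8, held 0, 1 and 49 cells. The part of these omissions in the cluster 0 values was not tested. A cluster is therefore not the same cell state in each library, and the part of its makeup in these ratios was not tested. Because the clusters were drawn from these cells, they are a description, although all complement genes listed were left out of the clustering.

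C1q and the receptors were split by cluster in another way. The C1q difference between WT_Ctrl and WT_UV was largest in cluster 0 of the 3, where the WT_UV level was 0.673 of WT_Ctrl (14699 and 9892 CPM), against 0.892 in cluster 1 and 0.926 in cluster 2. Summed C1q in RP_UV was 1.08-fold that of WT_Ctrl in cluster 0, 1.33-fold in cluster 1 and 1.29-fold in cluster 2. In cluster 0 the C1qc level of RP_UV was below that of WT_Ctrl, at 0.927 of it (0.9 to 0.956). C3ar1 was 1.59-fold higher in WT_UV than in WT_Ctrl in cluster 0 (290 and 461 CPM; 1.44 to 1.76) and 0.924 and 0.928 of it in clusters 1 and 2. C5ar1 in RP_UV was 1.79-fold that of WT_Ctrl in cluster 0 (137 and 245 CPM; 1.55 to 2.07), against 1.05 in cluster 1 and 1.16 in cluster 2. Against WT_UV, C5ar1 in RP_UV was 2.21-fold in cluster 0, 0.927 (0.85 to 1.01) in cluster 1 and 1.15-fold in cluster 2. C3ar1 in RP_UV was 0.588, 0.841 and 0.719 of WT_UV in clusters 0, 1 and 2. The cluster 0 ratios leave out its unnamed cells, among them the 265 WT_UV cells given above. Whether these ratios differ between clusters could not be tested with 1 library per group.

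**Figure D5:**
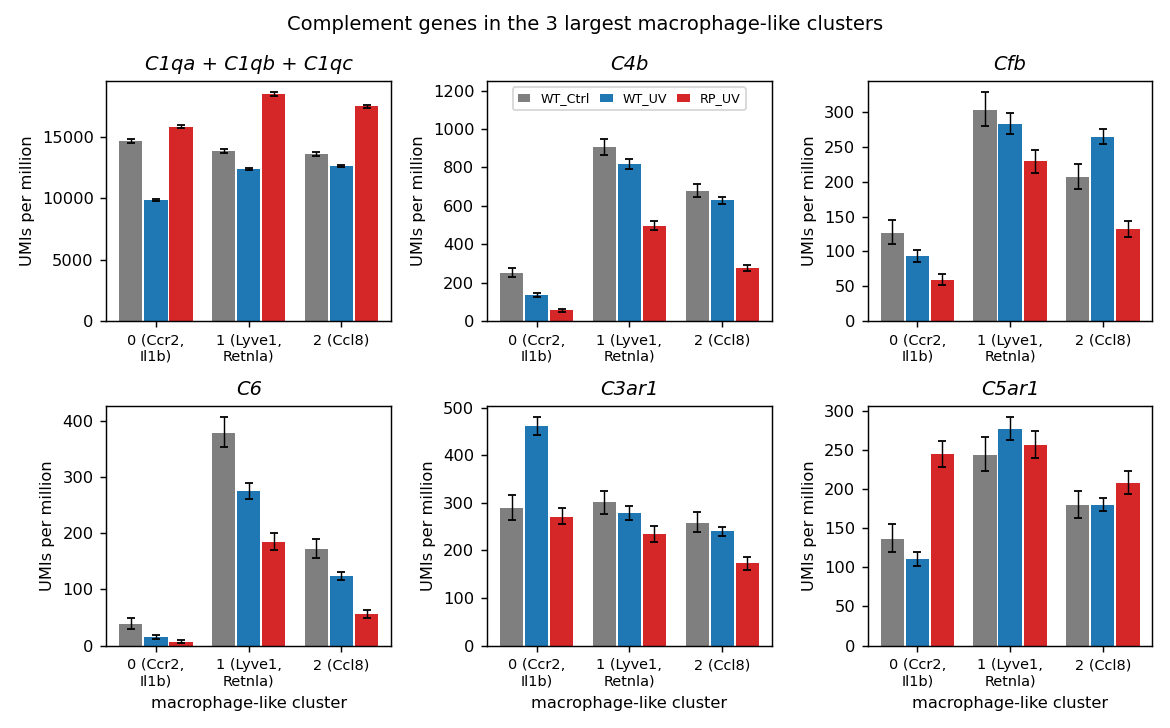
Levels in CPM (bars, from 0) with exact 95% counting intervals of summed C1q, C4b, Cfb, C6, C3ar1 and C5ar1 in the 3 largest macrophage clusters of each library. Cells of unnamed subclusters are left out. C4b and C6 are highest in cluster 1 (Lyve1, Retnla) of each library, and C3ar1 in cluster 0 of WT_UV stands above all other bars of its panel at 461 CPM.

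Against all genes with 30 or more UMIs in the class over all the libraries together, the members were read by a fold of 1.5. In macrophages, WT_UV over WT_Ctrl, none of 9 members was 1.5-fold higher (11.5% of 11983 genes) and 2, C3 and C6, were lower (6.65%). In RP_UV over WT_UV 1 member, C1qb, was higher (9.96%) and 4, C3, C4b, Cfb and C6, were lower (16.2%). In RP_UV over WT_Ctrl no member was higher (17.0%) and the same 4 were lower (17.9%). The members' medians were below those of all genes. The median log2 ratio of the 9 members was -0.24, -0.44 and -0.28 in these comparisons, against 0.04, -0.06 and -0.01 over all genes.

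Monocytes had 8 members with enough UMIs. In WT_UV over WT_Ctrl 5, the C1q chains and both receptors, were 1.5-fold higher (19.0% of genes) and C4b was lower (12.5%). RP_UV over WT_UV had 5 higher (C1q chains, C4b and C5ar1; 13.3%) and Cfb lower (20.1%), and RP_UV over WT_Ctrl had 5 higher (C1q chains and both receptors; 22.2%) and 2 lower (C4b and Cfb; 21.8%). In fibroblasts, RP_UV over WT_Ctrl, 4 of 7 were higher (C1q chains and Cfb; 19.9%) and 2 lower (C3 and C6; 10.9%), where the macrophage markers were also higher in RP_UV, as given above.

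Of 42 other complement genes listed, 16 had enough UMIs in macrophages. By the same fold of 1.5, 1 was higher and 6 lower in WT_UV than in WT_Ctrl (11.5% and 6.65% of all genes), 4 were higher and 4 lower in RP_UV than in WT_UV (9.96% and 16.2%), and 4 were higher and 7 lower in RP_UV than in WT_Ctrl (17.0% and 17.9%). Among regulators, Cd55, which speeds decay of the C3-cleaving enzymes, had 24.9, 48.4 and 72.4 CPM, in the order WT_Ctrl, WT_UV, RP_UV, 2.90-fold higher in RP_UV than in WT_Ctrl. Among activators, C2 was at 41.5, 25.6 and 20.1 CPM and the C1 protease C1ra at 28.3, 30.5 and 13.8 CPM, while properdin (Cfp), which stabilises the alternative pathway's enzyme, was at 549, 672 and 787 CPM. The receptor Vsig4, which binds C3 fragments, was at 10.2, 5.35 and 26.1 CPM, and Itgam, a chain of complement receptor 3, at 323, 398 and 340 CPM. Cd46, another regulator, was near 0 at 1.08, 1.09 and 0.359 CPM.

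Outside the macrophages, Cfd, the alternative pathway's factor D and a known adipocyte product, had no UMI in 32 sebocytes of WT_Ctrl and was at 1063 CPM in 220 sebocytes of RP_UV; fibroblasts of the same libraries were at 0.636 (1 UMI) and 457 CPM, and macrophages at 1.39 and 3.41 CPM, so Cfd was higher in RP_UV in each of these classes. Serping1, the C1 inhibitor, was at 1353 and 842 CPM in WT_Ctrl and RP_UV fibroblasts. Masp1, a lectin pathway protease, went from 32.4 to 84.9 CPM there and C7, a neighbour of C6 in the membrane attack complex, from 61.1 to 15.7 CPM. Of 13 listed genes with enough UMIs in fibroblasts, 4 were 1.5-fold higher and 3 lower in RP_UV than in WT_Ctrl, against 19.9% and 10.9% of all genes. In keratinocytes Cd59a, which blocks the membrane attack complex, had 48.9, 24.1 and 16.0 CPM in the same order of libraries, and Clu, another inhibitor of that complex, was at 58.3, 78.1 and 59.8 CPM. Cd59a was higher in Schwann cells, at 434 CPM in WT_Ctrl and 568 in RP_UV. Vtn, which also restrains the complex, was at 373, 186 and 246 CPM in pericytes or smooth muscle cells, of which WT_UV had 19. Csmd1, a complement regulator of neural tissue, was at 91.0 CPM in Schwann cells of WT_Ctrl and 55.8 in those of RP_UV.

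Over 27 sums of class and library, which share libraries and depth, the pattern of each gene was compared with that of 11223 genes by Pearson's r of log2(CPM + 10). Summed C1q was most like Pf4 (0.926), Ms4a7 (0.921) and Lgmn (0.921), and C3ar1 most like Slc7a8 (0.972), Ms4a8a (0.965) and Msr1 (0.963). Pf4 and Ms4a7 are among the markers that named the macrophage class, so their likeness over class sums is in part built in. C5ar1 was most like Cd300ld (0.936), Hk3 (0.923) and Gm34084 (0.919), C6 most like Reps2 (0.945), Pigz (0.909) and Tnfrsf17 (0.901), and C3 most like Dram1 (0.823), Ccdc80 (0.775) and Slc39a7 (0.769). Among the members, C3 stood apart with r of 0.14 to 0.44 to the others.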

How the data were processed

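Dorsal skin cells enriched for CD45 were profiled with 10x Genomics 3′ chemistry in 3 libraries. The deposited files hold UMI counts per gene and barcode that the authors made with Cell Ranger 6.1.1 (file header) on mm10 (submitters' processing notes), with no normalization. Cells with 200 to 4000 genes (up to 6000 in WT_UV, whose depth was greater) and at most 10% mitochondrial UMIs were kept, which follows the study's limits and left 5309, 5225 and 6070 cells of 5977, 6149 and 7240. Libraries were normalized and integrated in R 4.3.3 with Seurat 5.3.0 and sctransform 0.4.2, and clustered and subclustered in Python 3.11.15 with scanpy 1.11.5 and leidenalg 0.10.2, leaving out 51 complement genes; of 143 clusters, 44 stayed unnamed. Clusters were named from 20 marker panels; the naming limits were set after the clusters were seen, without the complement genes. Doublets were not removed in the main values; leaving out the 5% of cells with the highest Scrublet scores was an alternative.

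Raw UMIs were summed per class and library and divided by all UMIs of the class. Intervals were exact Poisson (levels), exact conditional binomial (ratios) and exact Clopper-Pearson (shares), at 95%; a level of 0 was read against a floor of 3 UMIs, and PCR and capture errors are not covered. The step was tested on simulated data. With 1 library per group no test was made between groups. The members and gene lists were chosen with earlier results of these data known. Other pathway genes were named where they were among the 8 highest in a class of 50 or more cells or at least 2-fold apart between libraries. One gene that this rule names is not reported here. Promoter letters are RefSeq's, GRCm38.p6; numpy 2.4.6, scipy 1.17.1, pandas 2.3.3 and matplotlib 3.10.9 were used.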

Additional observations from a re-analysis of the deposited data

How the results depend on the processing

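No paired analysis was possible because each group had 1 library, and for the same reason no library could be left out in turn. Values below are log2 ratios. For C1q in macrophages the main values were -0.25 (WT_UV over WT_Ctrl), 0.54 (RP_UV over WT_UV) and 0.29 (RP_UV over WT_Ctrl), and no alternative changed their direction. They were -0.28 and 0.58 for the first 2 with a limit of 4000 genes in every library; 0.53 for RP_UV over WT_UV with all deposited barcodes; -0.28, 0.64 and 0.35 with classes from marker UMIs; -0.35, 0.67 and 0.32 with unnamed clusters given their best panel; -0.20, 0.52 and 0.32 without integration; 0.61 and 0.37 for the last 2 as a mean over cells; -0.31, 0.62 and 0.31 with cells thinned to 2000 UMIs; 0.30 for RP_UV over WT_Ctrl without mitochondrial and ribosomal genes; and -0.50, 0.83 and 0.33 with macrophages and monocytes as 1 class.

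Fibroblast values that involve WT_UV rest on 9 cells. C3 there was -2.30, a bound, for WT_UV over WT_Ctrl and -0.31 after thinning, and RP_UV over WT_UV went from 1.52 to -0.28, both being bounds set by the floor. C3 for RP_UV over WT_Ctrl (-0.77) was -0.999 with classes from marker UMIs, -0.998 as a mean over cells and -0.50 with the best panel. C4b for WT_UV over WT_Ctrl (0.42) was -2.38 from marker UMIs and 1.99 after thinning, for RP_UV over WT_UV (-0.82) 1.95 and -2.33, and for RP_UV over WT_Ctrl (-0.40) 0.0198 with the best panel. In macrophages, WT_UV over WT_Ctrl, C4b was 0.0169 with the 4000 limit and 0.0066 after thinning, and Cfb was -0.0070 from marker UMIs, -0.0316 with the best panel and -0.24 with monocytes included. The causes were not tested. Members past 1.5-fold in macrophages numbered 2 in WT_UV over WT_Ctrl, 1 under the 4000 limit, no integration, mean over cells or thinning (C6 lost) and under marker UMIs or best panel (C3 lost), and 0 at 2-fold; RP_UV over WT_UV had 5, 2 at 2-fold and 4 to 6 under the other settings, with C1qa reaching 1.78-fold and C1qc 1.66-fold higher; RP_UV over WT_Ctrl had 4, and 3 as a mean over cells, after thinning or at 2-fold. Of 515 alternative values over 57 other results on single genes and classes, 363 lay within the main value's counting interval, 147 moved further, and 5 (the macrophage C4b and Cfb values above) changed direction from a main ratio whose interval excluded 1. Sign changes from ratios whose interval included 1 are counted among the rest.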
